A study of Mus musculus with 5 samples.

Results

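The basement membrane is a thin sheet of extracellular matrix that lies against muscle fibres, capillaries, nerves and fat cells. It is built from a laminin polymer at the cell surface and a covalently linked collagen IV network, and the nidogens and the heparan sulfate proteoglycan perlecan hold both together. Laminins are trimers of an alpha, a beta and a gamma chain, and the alpha chain largely decides which receptor is bound. In muscle, mesenchymal cells of the interstitium are known to make many of these proteins for the sheet around the fibres, and loss of the laminin alpha2 chain is known as a cause of congenital muscular dystrophy.

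The 10 genes described here were given as a list of basement membrane components, chosen by name from the 31055 genes counted, and each had UMIs (unique molecular identifiers, which count captured RNA molecules) in all 5 libraries. They comprise the collagen IV chains Col4a1 and Col4a2, the laminin chains Lama2, Lama4, Lamb1 and Lamc1, the linkers Nid1 (nidogen-1) and Hspg2 (perlecan), and Col15a1 and Col18a1, which encode the multiplexins, collagens that anchor the sheet to the matrix around it. Single-cell RNA sequencing (scRNAseq, 3′ kit v.2) was performed on GFP+ cells sorted from the hindlimb muscle of adult Prx1Cre;mTmG mice on a C57Bl/6 background, in which Cre under the Prx1 promoter switches limb mesenchyme and its descendants to GFP. Muscle was uninjured (d0) or taken at d3 or d5 after a non-stabilized tibial fracture or after polytrauma, in which the muscle beside the fracture was also compressed. Cells of 2 mice went into each library. With 1 library per condition, differences could not be tested against the spread between mice, and p-values are left out. All intervals are 95% intervals that cover counting error only, not the spread between mice.

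The conditions of 2 libraries were exchanged relative to their deposited labels, because the study's own cell numbers match the other label. What is called d3 post-polytrauma here carries the label d5 post-fracture, and what is called d5 post-fracture (2001 barcodes) carries the label d3 post-polytrauma. The levels at d0, d3 post-fracture and d5 post-polytrauma do not depend on this choice. The libraries of d0 and of both d3 conditions drew on 1 barcode set and both d5 libraries on another, so that differences between d5 and earlier days cannot be told apart from library preparation. After filtering, 29831 of 34439 barcodes were kept, 1468 to 11941 per library, and the median depth per cell was 3640 UMIs at d0 and 15688 to 34949 after injury. FAP/MP (fibroadipogenic and mesenchymal progenitor) markers summed to 933 to 2332 CPM (a gene's UMIs scaled to the same total in each library), whereas endothelial markers summed to 2.42 to 11.8 CPM and hematopoietic markers to 9.0 to 35.0 CPM. Cell division markers summed to 7.63 CPM at d0 and 331 to 529 CPM after injury. Pericyte-like markers summed to 1230 CPM at d0 and 64.3 to 239 CPM after injury.

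For the 4 genes that fell furthest after fracture, the promoter windows are shown, since those of Col4a1 and Col4a2 overlap. The sequences are from RefSeq on GRCm38.p6 and run from 250 bases before to 50 bases after the start of the transcript, 5′ to 3′ on the strand of the gene. The windows are Col4a1 at chr8:11312777-11313076 (− strand), Col4a2 at chr8:11312555-11312854 (+ strand), Col15a1 at chr4:47207762-47208061 (+ strand) and Lama2 at chr10:27616893-27617192 (− strand). Capitals mark matches to CCAAT (the CCAAT box) or GGGCGG (the GC box) and their reverse complements ATTGG and CCGCCC.
Col4a1: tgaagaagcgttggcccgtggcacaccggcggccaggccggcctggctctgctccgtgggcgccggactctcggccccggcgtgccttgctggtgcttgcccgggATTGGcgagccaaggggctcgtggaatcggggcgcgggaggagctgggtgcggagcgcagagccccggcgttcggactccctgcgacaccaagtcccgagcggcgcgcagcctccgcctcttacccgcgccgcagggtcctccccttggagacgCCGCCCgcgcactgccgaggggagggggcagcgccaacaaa
Col4a2: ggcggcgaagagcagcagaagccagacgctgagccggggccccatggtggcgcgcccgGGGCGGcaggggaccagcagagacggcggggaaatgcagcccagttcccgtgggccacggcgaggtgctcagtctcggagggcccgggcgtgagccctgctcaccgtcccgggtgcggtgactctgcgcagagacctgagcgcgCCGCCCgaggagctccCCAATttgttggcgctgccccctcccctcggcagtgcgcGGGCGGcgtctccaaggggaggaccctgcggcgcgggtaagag
Col15a1: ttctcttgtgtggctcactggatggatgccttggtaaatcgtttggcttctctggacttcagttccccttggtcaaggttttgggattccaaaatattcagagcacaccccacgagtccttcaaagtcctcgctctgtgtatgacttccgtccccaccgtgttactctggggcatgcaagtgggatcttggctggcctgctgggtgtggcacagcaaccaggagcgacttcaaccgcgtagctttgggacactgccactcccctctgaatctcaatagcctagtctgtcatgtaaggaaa
Lama2: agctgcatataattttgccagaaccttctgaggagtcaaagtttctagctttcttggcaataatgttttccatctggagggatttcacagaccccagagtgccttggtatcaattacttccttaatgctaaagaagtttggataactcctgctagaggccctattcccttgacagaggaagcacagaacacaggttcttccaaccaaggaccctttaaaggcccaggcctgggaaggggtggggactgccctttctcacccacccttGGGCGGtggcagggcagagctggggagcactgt
The starts of Col4a1 (position 11312826) and Col4a2 (position 11312805) lie 21 bases apart on opposite strands. Each start lies within the other gene, and the windows hold 78 bases in common. Both windows were rich in G and C (74.0% for Col4a1, 73.7% for Col4a2), against 52.3% for Col15a1, 50.3% for Lama2 and a median of 52.7% over all promoters. CCAAT or its reverse occurred in 5 of the 9 windows found for 8 of the 10 genes, among them both collagen IV windows, and in 37.4% of all 32817 promoters. The GC box occurred in 7 of the 9 windows, including those of Col4a1, Col4a2 and Lama2, and in 35.6% of all promoters. TATAAA (13.6% of all promoters, both strands) and the AP-1 sequence TGACTCA (5.2%, both strands) occurred in 0 of the 9 windows. The Col15a1 window held none of these 4 motifs. A match describes letters in a window and not a bound site.

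Transcripts of the collagen IV network were abundant in uninjured cells and scarce at d3. Col4a1, the alpha1 chain, was counted at 549 CPM at d0 (538 to 560), 18.3 CPM at d3 post-fracture (17.5 to 19.1) and 27.9 CPM at d3 post-polytrauma (26.9 to 29.0). At d5 it reached 74.5 CPM post-fracture (72.2 to 76.9) and 50.6 CPM post-polytrauma (49.6 to 51.6). The uninjured library thus stood far above all 4 injured libraries, and the level at d3 post-fracture was lower by 30.0-fold. Col4a2, the alpha2 chain that joins the same trimer, was counted at 302 CPM at d0 (294 to 310), 21.4 CPM at d3 post-fracture (20.5 to 22.3), 31.5 CPM at d3 post-polytrauma (30.4 to 32.6), 44.7 CPM at d5 post-fracture (42.9 to 46.6) and 32.7 CPM at d5 post-polytrauma (32.0 to 33.5). Its polytrauma libraries at d3 and d5 had overlapping intervals, which no other pair of neighbouring levels of any member had. Because both genes fell by different amounts, the 14.1-fold fall of Col4a2 was smaller than that of Col4a1.

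**Figure D1:**
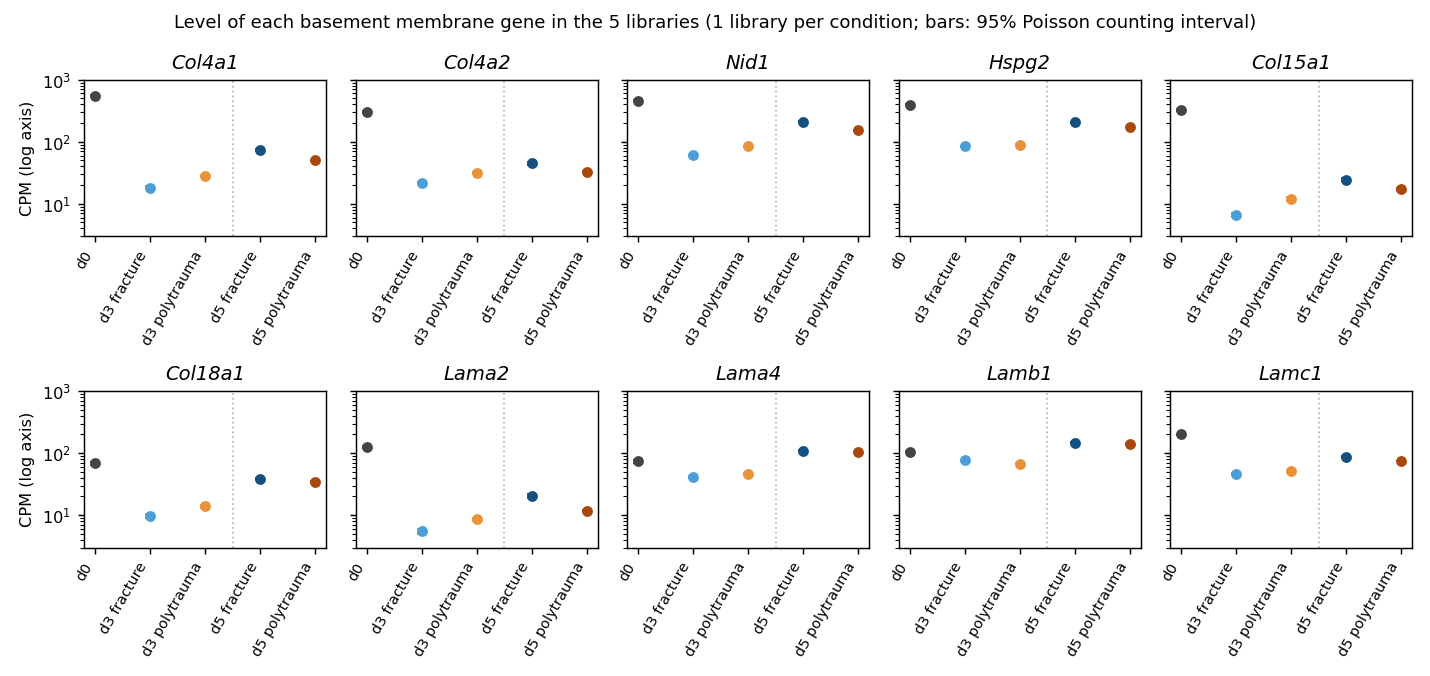
Level of each of the 10 genes in CPM (log axis) in the 5 libraries, 1 point per library with its 95% Poisson counting interval. The d0 point is the highest for 8 genes, from Col4a1 at 549 CPM to Col18a1 at 68.0 CPM, while Lama4 and Lamb1 are highest at d5 post-fracture (110 and 147 CPM).

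The laminin chains did not move together. Lama2 encodes the alpha2 chain of the laminins of the muscle fibre sheet and was counted at 126 CPM at d0 (121 to 132), 5.45 CPM at d3 post-fracture (5.00 to 5.93), 8.54 CPM at d3 post-polytrauma (7.98 to 9.12), 20.3 CPM at d5 post-fracture (19.1 to 21.6) and 11.8 CPM at d5 post-polytrauma (11.3 to 12.2). Lama4, which encodes the alpha4 chain typical of vessel, fat and nerve sheets, was counted at 74.2 CPM at d0 (70.2 to 78.4), 41.4 CPM at d3 post-fracture (40.1 to 42.7), 45.7 CPM at d3 post-polytrauma (44.5 to 47.1), 110 CPM at d5 post-fracture (107 to 113) and 104 CPM at d5 post-polytrauma (102 to 105). Lama2 was lower by 23.1-fold at d3 post-fracture and did not come back to its d0 level at d5, whereas Lama4 was lower by 1.79-fold at d3 and stood above d0 in both d5 libraries. The beta1 chain Lamb1 was counted at 105 CPM at d0 (100.03 to 110), 76.2 CPM at d3 post-fracture (74.5 to 78.0), 67.7 CPM at d3 post-polytrauma (66.1 to 69.3), 147 CPM at d5 post-fracture (144 to 151) and 143 CPM at d5 post-polytrauma (141 to 144). The gamma1 chain Lamc1, which most laminin trimers share, was counted at 199.98 CPM at d0 (193 to 207), 46.0 CPM at d3 post-fracture (44.7 to 47.4), 51.0 CPM at d3 post-polytrauma (49.6 to 52.4), 87.8 CPM at d5 post-fracture (85.3 to 90.4) and 74.8 CPM at d5 post-polytrauma (73.6 to 76.0). Lamb1 followed the course of Lama4, highest at d5, while Lamc1 kept its highest level at d0.

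The linkers fell less than collagen IV. Nid1, which binds both laminin and collagen IV, was counted at 458 CPM at d0 (448 to 468), 60.2 CPM at d3 post-fracture (58.7 to 61.8), 84.9 CPM at d3 post-polytrauma (83.1 to 86.7), 211 CPM at d5 post-fracture (207 to 215) and 153 CPM at d5 post-polytrauma (151 to 155). Hspg2 was counted at 397 CPM at d0 (388 to 407), 84.6 CPM at d3 post-fracture (82.8 to 86.5), 88.8 CPM at d3 post-polytrauma (87.0 to 90.6), 207 CPM at d5 post-fracture (203 to 211) and 174 CPM at d5 post-polytrauma (172 to 176). Both genes were lowest at d3 and intermediate at d5, with d3 post-fracture below d0 by 7.61-fold for Nid1 and 4.69-fold for Hspg2.

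The multiplexins differed from each other. Col15a1, whose product sits between the basement membrane and the fibrillar matrix, was counted at 326 CPM at d0 (317 to 334), 6.55 CPM at d3 post-fracture (6.06 to 7.08), 11.9 CPM at d3 post-polytrauma (11.3 to 12.6), 24.4 CPM at d5 post-fracture (23.1 to 25.8) and 17.5 CPM at d5 post-polytrauma (17.0 to 18.1). Col18a1, whose product releases endostatin, was counted at 68.0 CPM at d0 (64.2 to 72.0), 9.68 CPM at d3 post-fracture (9.08 to 10.3), 13.9 CPM at d3 post-polytrauma (13.2 to 14.6), 38.3 CPM at d5 post-fracture (36.7 to 40.1) and 34.4 CPM at d5 post-polytrauma (33.6 to 35.3). Col15a1 was lower at d3 post-fracture by 49.7-fold, the largest ratio among the 10 genes, and stayed low at d5, whereas Col18a1 was lower by 7.03-fold at d3.

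The first comparison asked how the cells changed between the uninjured state and d3 post-fracture, within 1 barcode set. On the log2 scale the ratio of d3 post-fracture to d0 was −5.64 for Col15a1 (−5.75 to −5.52), −4.91 for Col4a1 (−4.98 to −4.84), −4.53 for Lama2 (−4.67 to −4.40) and −3.82 for Col4a2 (−3.89 to −3.75). It was between −2.93 and −2.12 for Nid1, Col18a1, Hspg2 and Lamc1, −0.84 for Lama4 (−0.93 to −0.75) and −0.46 for Lamb1 (−0.53 to −0.38). At a 2-fold threshold, 8 of the 10 genes were lower and 0 were higher, and 28.6% of the 7971 genes with at least 10 CPM in either library were lower and 12.5% higher. Of the 8, Col15a1, Col18a1 and Lama2 passed that filter through d0 alone, which leaves 5 of 7 lower. The share of all genes among those with 10 CPM in both libraries was not computed. Such counts, here and below, therefore have no background beside them. The median log2 ratio was −2.87 for the 10 genes and −0.32 for all genes tested, a difference of −2.55. Only 0.99% of tested genes had a lower ratio than Col15a1 and 1.68% a lower ratio than Col4a1, against 45.2% for Lamb1. The share of pericyte-like cells also fell, from 16.2% to 2.13%, and 41.0% of d3 post-fracture cells lay in clusters of dividing cells (48.9% at a resolution of 0.3). Without pericyte-like clusters the median was −3.16, and without dividing clusters it was −2.43.

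**Figure D2:**
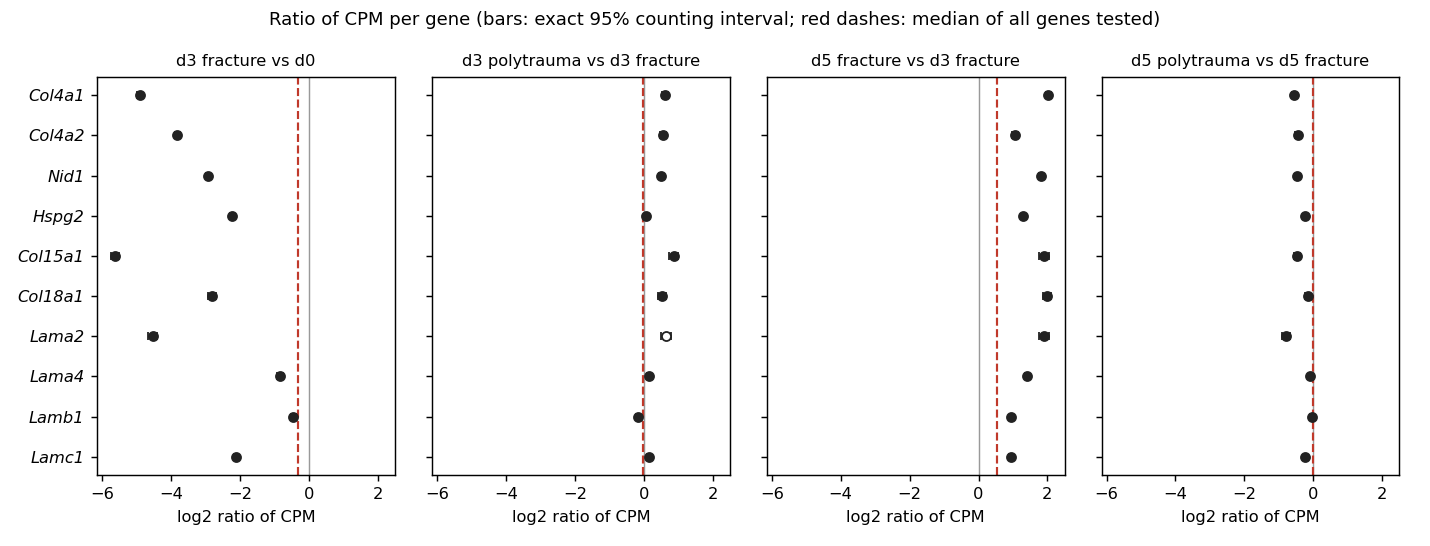
Log2 ratio of CPM per gene, with exact 95% counting intervals, and the median of all genes tested as a red dashed line. The panels compare d3 post-fracture with d0, d3 post-polytrauma with d3 post-fracture, d5 with d3 post-fracture and d5 post-polytrauma with d5 post-fracture. At d3 post-fracture against d0 all 10 points lie left of the all-gene median of −0.32, from −5.64 for Col15a1 to −0.46 for Lamb1.

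Because cells at d3 held more UMIs than at d0, CPM and UMIs per cell gave different directions for some genes. Col4a1 fell from 2.07 to 0.327 UMIs per cell and Col15a1 from 1.23 to 0.117. Hspg2 had 1.5 UMIs per cell at d0 and 1.51 at d3 post-fracture, and Lamc1 had 0.753 and 0.823. Lama4 was at 0.279 UMIs per cell at d0 and 0.740 at d3 post-fracture, and Lamb1 at 0.394 and 1.36. The lower CPM of these last 4 genes therefore describes a lower share of the UMIs of a cell and not fewer UMIs per cell, which also depend on how deeply each library was sequenced.

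When each cell was thinned to 1000 UMIs, the share of cells with a UMI fell in the same direction as CPM. Col4a1 was seen in 36.6% of d0 cells (35.2% to 38.0%) and 2.79% of d3 post-fracture cells (2.38% to 3.26%), where 66.1% and 15.9% held a UMI before thinning. Col15a1 went from 23.3% (22.1% to 24.5%) to 1.0% (0.76% to 1.30%), Nid1 from 34.5% to 7.17% and Hspg2 from 29.6% to 8.84%. For Lamb1 the thinned share was 9.87% (9.02% to 10.8%) and 7.98% (7.28% to 8.72%), while the unthinned share rose from 25.8% to 64.1%. All 10 genes were seen in more thinned cells at d0 than at d3 post-fracture, and 8 had their highest share at d0. The 99 hematopoietic-like cells of d3 post-polytrauma, which should lack these genes, showed Col4a1 in 2.02% (0.25% to 7.11%) against 3.29% of all cells of that library. The median depth was 3736 UMIs in these cells and 15688 in the library. The share of Col4a1-positive cells at d3 post-polytrauma thus lay within the interval of this background, which rests on few cells and was not measured at d0 or d3 post-fracture.

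Uninjured cells also held UMIs of more of the genes per cell. After thinning, a d0 cell held a UMI of 1.99 of the 10 genes on average, against 0.433 at d3 post-fracture, 0.472 at d3 post-polytrauma, 0.892 at d5 post-fracture and 0.793 at d5 post-polytrauma. At least 3 of the genes were seen in 32.9% of d0 cells, 1.5% of d3 post-fracture cells and 1.63% of d3 post-polytrauma cells. At d5 these shares were 7.63% post-fracture and 4.85% post-polytrauma. At least 5 of the genes were seen in 8.83% of d0 cells. The mean is the sum of the shares of the 10 single genes, and the other values rise with those shares. Whether the genes occurred together in a cell beyond that was not tested.

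Within a network the balance of partner genes moved with injury. The ratio of UMIs of 2 genes depends on how well each 3′ end is captured, so that only its change between libraries can be read. Lama4 UMIs per Lama2 UMI were 0.588 at d0 (0.549 to 0.630), 7.59 at d3 post-fracture (6.94 to 8.32), 5.36 at d3 post-polytrauma (4.98 to 5.76), 5.39 at d5 post-fracture (5.05 to 5.77) and 8.81 at d5 post-polytrauma (8.45 to 9.20). The balance of these laminin alpha chains was thus on the Lama4 side in every injured library relative to d0. The same ratio within FAP/MP-like cells was 0.577 at d0, 2.22 at d3 post-fracture, 5.65 at d3 post-polytrauma, 2.81 at d5 post-fracture and 7.38 at d5 post-polytrauma. At d3 post-fracture this value was 5.59 and 4.00 at clustering resolutions of 0.3 and 1.0.

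Other partners shifted too. Lamb1 per Lamc1 was 0.524 at d0 (0.495 to 0.555) and 1.33 to 1.91 in the injured libraries. Col4a1 per Col4a2, the genes with overlapping promoter windows, was 1.82 at d0 (1.76 to 1.88), 0.855 at d3 post-fracture (0.802 to 0.910), 0.888 at d3 post-polytrauma (0.844 to 0.934), 1.67 at d5 post-fracture (1.58 to 1.76) and 1.55 at d5 post-polytrauma (1.5 to 1.6). Over all cells this ratio was low only at d3. In FAP/MP-like cells it took the same course, with 2.02 at d0, 0.974 and 0.912 at d3 and 1.68 and 1.42 at d5. In pericyte-like cells it took another course, with 1.09 at d0 (0.994 to 1.19). There it was 0.803 and 1.11 at d3 and 1.91 and 1.69 at d5, post-fracture and post-polytrauma. Col18a1 per Col15a1 was 0.209 at d0 (0.196 to 0.222) and 1.16 to 1.96 in the injured libraries. In pericyte-like cells this ratio was 4.66 at d0 and 2.88 to 6.26 in the injured libraries.

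**Figure D3:**
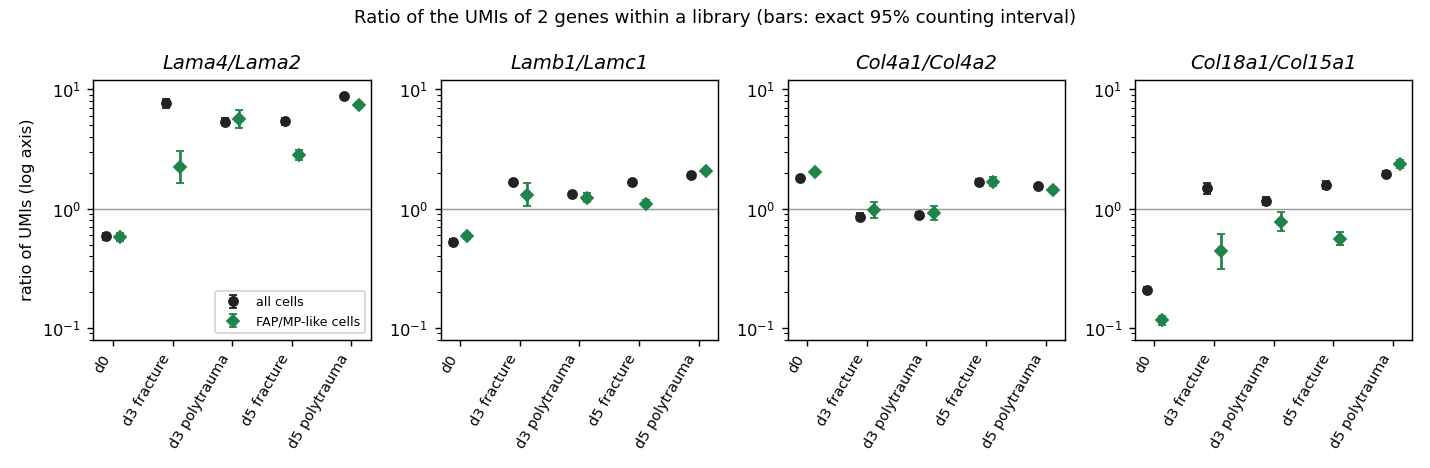
Ratio of the UMIs of 2 genes within each library (log axis) in all cells and in FAP/MP-like cells, with exact 95% counting intervals. Lama4 per Lama2 rises from 0.588 at d0 to 5.36 or more in every injured library, and Col4a1 per Col4a2 dips below 1 at d3.

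To see which uninjured cells carried the transcripts, d0 cells were clustered without these genes and without the other basement membrane genes. FAP/MP-like cells formed 4 clusters with 2852 of 4632 cells (61.6%). Their cluster 2, of 660 cells led by Saa1, Thrsp and Dlk1, held the highest CPM of Col4a1 (1149), Col4a2 (568), Col15a1 (1030), Lama2 (282), Lamb1 (294), Lamc1 (338) and Hspg2 (783) among the 9 clusters. Cluster 1, of 949 cells led by the interferon-induced genes Ifi205 and Iigp1, stood at 904 CPM of Col4a1 and 654 CPM of Nid1. Cluster 5, of 761 cells led by Smpd3, Cmah and Wnt10b, showed another balance, with 45.5 CPM of Col15a1 and 276 CPM of Col4a1 but 795 CPM of Nid1 and 115 CPM of Lama4. These were the highest levels of both genes, although for Lama4 the interval (103 to 128) overlapped that of cluster 2 (97.6 to 126). Col15a1 thus differed more among FAP/MP-like clusters than Nid1 did.

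Smaller populations at d0 had profiles of their own. A cluster of 137 cells led by Ptcra, Gatm and Stra6, named perineurial-like from its markers of the sheath around nerve bundles, held 670 CPM of Col15a1 and 234 CPM of Col18a1, the highest Col18a1 of the 9 clusters. It was not uniform: at a resolution of 1.0, 100 of these cells were named FAP/MP-like and 37 perineurial-like. The former held 861 CPM of Col15a1 (758 to 973) and the latter 83.8 CPM (36.2 to 165), while Col18a1 was at 225 CPM (174 to 286) and 262 CPM (170 to 387). The 136 tenocyte-like cells held 183 CPM of Col18a1 and 440 CPM of Col4a1 but 21.6 CPM of Col15a1. An unnamed cluster of 310 cells led by Bglap2, Wif1 and Chad was low for most genes, with 84.6 CPM of Col4a1 and 13.7 CPM of Col18a1. Another unnamed cluster of 447 cells, led by Hp and Stc1, held 477 CPM of Col4a1 and 373 CPM of Col15a1. FAP/MP-like was its only candidate name.

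**Figure D4:**
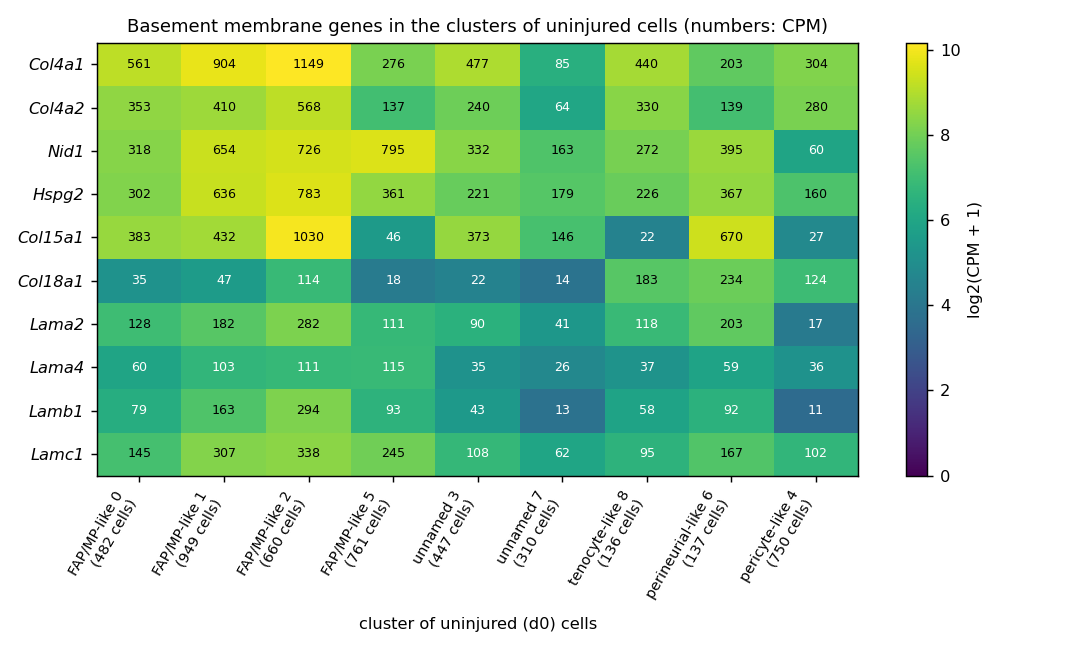
CPM of each gene in the 9 clusters of uninjured cells, coloured by log2(CPM + 1) with the CPM written in each cell. FAP/MP-like cluster 2 is highest for Col4a1 (1149 CPM) and Col15a1 (1030 CPM), while the pericyte-like cluster has 10.9 CPM of Lamb1.

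Pericytes wrap capillaries and share their sheet. The cells named pericyte-like, by markers that include the contractile gene Myh11, did not lead these genes at d0. The 750 pericyte-like cells of d0 held 304 CPM of Col4a1 (286 to 324) against 604 CPM in all other cells, and 10.9 CPM of Lamb1 (7.57 to 15.1) against 126 CPM. Their log2 ratio to the other cells was below 0 for 9 of the 10 genes, with a median of −1.36, and reached −3.88 for Col15a1, −3.54 for Lamb1, −3.19 for Nid1 and −3.17 for Lama2. Col18a1 was the exception, with 124 CPM against 55.2 CPM in other cells (2.25-fold). This cluster was led by Hba-a2 and Hba-a1 beside the contractile genes Tagln, Pln and Myh11, and the part of this hemoglobin RNA in the values was not tested. Without possible doublets the median was −1.56.

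After injury pericyte-like cells stood far above the other cells for 4 genes. In pericyte-like cells Col4a1 was counted at 347 CPM at d3 post-fracture (308 to 390), 331 CPM at d3 post-polytrauma (277 to 391), 1580 CPM at d5 post-fracture (1504 to 1659) and 1062 CPM at d5 post-polytrauma (1009 to 1118). The d3 intervals overlapped that of d0 and the d5 levels lay above it, whereas the other cells were at 604 CPM at d0 and at 15.6, 26.7, 44.2 and 43.7 CPM in the injured libraries in the same order. The ratio of pericyte-like to other cells was 22.3-fold at d3 post-fracture, 12.4-fold at d3 post-polytrauma, 35.8-fold at d5 post-fracture and 24.3-fold at d5 post-polytrauma for Col4a1. It was 9.83-fold to 28.7-fold for Col4a2, 21.2-fold to 67.6-fold for Col18a1 and 3.94-fold to 19.0-fold for Col15a1. For Lama2, Lama4, Lamb1, Lamc1, Nid1 and Hspg2 the ratio stayed between 0.55-fold and 2.14-fold in every injured library.

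The pericyte-like groups after injury were small, with 119, 54, 49 and 103 cells at d3 post-fracture, d3 post-polytrauma, d5 post-fracture and d5 post-polytrauma. At a resolution of 1.0 the d3 post-fracture group held 69 cells, and 74 cells led by Rgs5, Kcnj8 and Higd1b were unnamed. At 0.3 the groups held 115 cells at d3 post-fracture and 36 at d5 post-fracture. The polytrauma groups kept 54 or 55 cells at d3 and 103 at d5. Whether the ratios to other cells in the injured libraries hold at these resolutions was not tested. At d5 post-fracture the 49 pericyte-like cells were 3.34% of cells and carried 41.9% of the library's Col4a1 UMIs and 41.6% of its Col18a1 UMIs, against 10.2% and 33.8% at d0. They made up a cluster of 19 cells led by Pln and Myh11 and one of 30 cells led by Rgs5 and Higd1b. The cluster of 19 cells had 0 UMIs of Col15a1 and Lamb1 among 280848, which allows up to 10.7 CPM. Whether the class had the same make-up in each library, and the part of this in its levels, was not tested. Endothelial markers, of cells rich in collagen IV, summed to 30.3 to 169 CPM in the pericyte-like cells of the injured libraries, to 13.7 CPM in those of d0 and to 1.39 to 11.4 CPM in the rest. Without the cells that held an endothelial marker UMI, Col4a1 stood at 296, 339, 1276 and 979 CPM in the 4 injured libraries in the same order, and Col15a1 at 73.3, 52.7, 119 and 204 CPM. Myofibre markers summed to 1697 CPM in the pericyte-like cells of d5 post-polytrauma. Without the 2 of 103 cells that held a UMI of such a marker, Col4a1 there was 1099 CPM and Col18a1 667 CPM, against 1062 and 642 CPM with them.

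**Figure D5:**
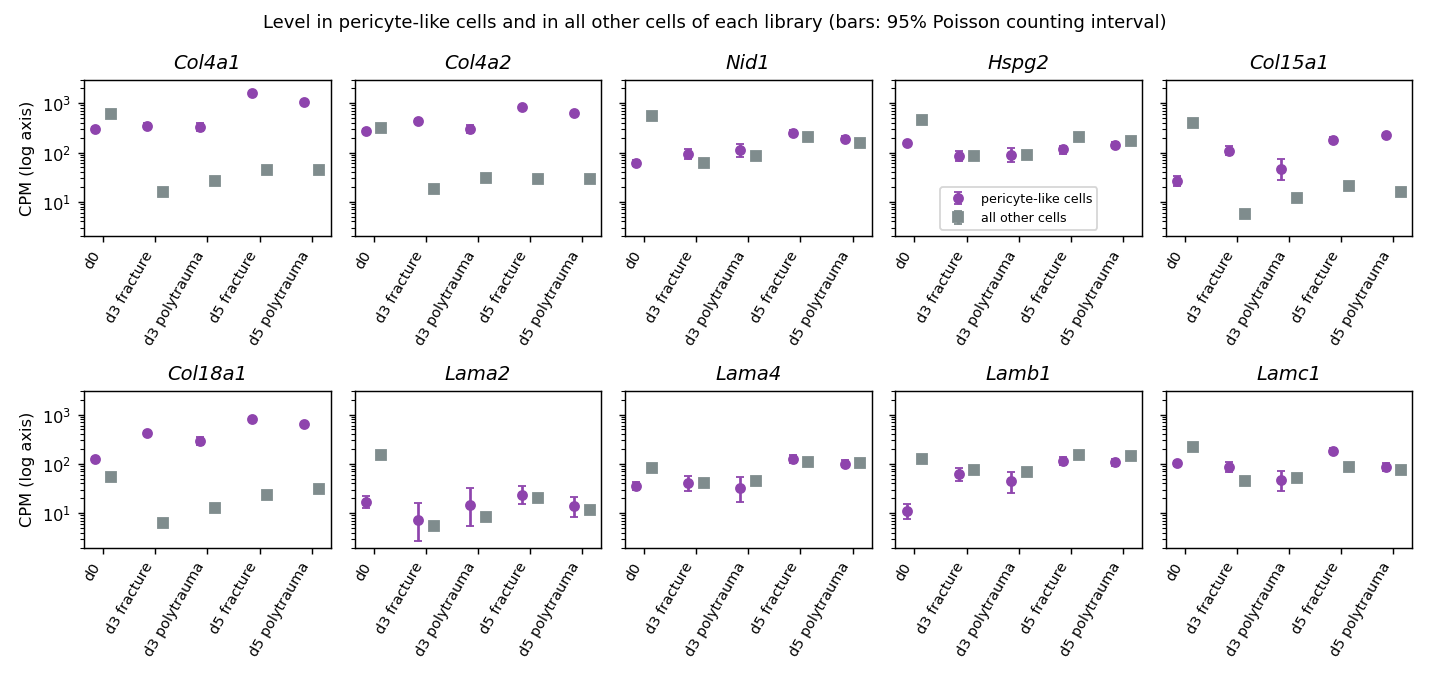
CPM (log axis) in pericyte-like cells and in all other cells of each library, with 95% Poisson counting intervals. For Col4a1 the pericyte-like level stays at or above 304 CPM in all libraries while the other cells fall from 604 CPM at d0 to 44.2 CPM at d5 post-fracture.

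Within FAP/MP-like cells the fall was present but differed in size between libraries and between genes. The class was named in each library from its own clusters and held 2852 cells at d0, 251 at d3 post-fracture, 1250 at d3 post-polytrauma, 304 at d5 post-fracture and 4362 at d5 post-polytrauma. Col4a1 in these cells was 725 CPM at d0, 173 CPM at d3 post-fracture, 29.8 CPM at d3 post-polytrauma, 177 CPM at d5 post-fracture and 45.4 CPM at d5 post-polytrauma. Col4a2 was 358, 178, 32.6, 105 and 31.9 CPM in the same order, Col15a1 was 446, 63.8, 20.0, 77.0 and 12.4 CPM and Lama2 was 175, 30.6, 11.1, 59.3 and 16.6 CPM. Nid1 was 656, 224, 172, 510 and 212 CPM and Lama4 was 101, 67.8, 62.6, 167 and 122 CPM in the same order. At d3 post-fracture the class made up 4.49% of cells, at a median of 6989 UMIs against 17963 for the library, and 24.9% of cells lay in unnamed clusters. Its extent followed the clustering resolution, with 2261 cells at a resolution of 0.3 and 1181 at 1.0, where Col4a1 was 31.1 and 64.7 CPM in place of 173 CPM. The order of fracture and polytrauma at d3 followed it too: the number of the 10 genes lower after polytrauma was 10 at a resolution of 0.5, 8 at 1.0 and 1 at 0.3, so no order is read at d3. All 10 genes were lower in this class at d3 post-fracture and at d3 post-polytrauma than at d0 at each of the 3 resolutions. At d5 all 10 were lower after polytrauma than after fracture at each resolution, with Col4a1 at 178 and 38.7 CPM at a resolution of 0.3 and 109 and 45.5 CPM at 1.0. The d5 classes were not alike: at a resolution of 0.5 the FAP/MP markers summed to 4460 CPM post-fracture and 1241 CPM post-polytrauma. In all but the pericyte-like cells of these libraries they summed to 1505 and 1033 CPM. The part of this in the d5 order was not tested. With the deposited labels this d5 order turns for Col4a1 at a resolution of 0.5, with 45.4 CPM after polytrauma and 29.8 CPM after fracture.

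At d5 post-fracture the genes stood higher than at d3 post-fracture. At the 2-fold threshold 8 of 10 genes were higher and 0 lower, against 34.1% higher and 4.46% lower of 8170 genes tested. Without the 3 genes under 10 CPM at d3, 5 of 7 were higher. The largest ratios were 4.07-fold for Col4a1, 3.96-fold for Col18a1, 3.73-fold for Lama2 and 3.72-fold for Col15a1. Lamb1 and Lamc1 did not reach the threshold, at 1.93-fold and 1.91-fold. The median log2 ratio was 1.61 for the 10 genes and 0.55 for all genes tested, and 5 genes were past 2-fold relative to the latter. Of these 5, Col18a1, Lama2 and Col15a1 were under 10 CPM at d3 and passed the filter through d5 alone. The share of all genes past this mark is not given, so nothing is read from the count. With the conditions as deposited the median of the 10 genes was 0.51 and 0 genes were 2-fold higher, beside 1.72% of all genes tested in that pair of libraries. The comparison crosses the barcode sets, so that day and library preparation cannot be told apart.

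At d3 the largest differences between polytrauma and fracture were below 2-fold over all cells. Of the 9 genes with at least 10 CPM in either library, 0 passed 2-fold in either direction, where 1.72% of 6567 genes were higher and 1.26% lower after polytrauma. The fold of polytrauma over fracture was 1.82 for Col15a1 (log2 0.87, 0.73 to 1.01), 1.53 for Col4a1, 1.47 for Col4a2, 1.44 for Col18a1 and 1.41 for Nid1. These 5 ratios were higher than those of 93.5% to 97.7% of the genes tested. Of the 5, Col15a1 and Col18a1 were under 10 CPM post-fracture (6.55 and 9.68 CPM) and passed the filter through polytrauma alone. Lama4, Lamc1 and Hspg2 were at 1.05-fold to 1.11-fold, and Lamb1 was at 0.89-fold. Lama2 was under 10 CPM in both libraries. The median log2 ratio was 0.51 over the 10 genes, Lama2 included, and −0.03 over all genes tested. Dividing clusters held 41.0% of the cells post-fracture and 24.7% post-polytrauma at a resolution of 0.5, but 48.9% and 44.8% at 0.3. Without the dividing clusters named at 0.5 the median of the 10 genes was 0.079 and Col4a2 turned to −0.013. Without pericyte-like clusters Col15a1 (log2 1.05) and Col18a1 (1.03) passed 2-fold, from 5.72 and 6.28 CPM post-fracture. The share of all genes in this setting is not given, so nothing is read from these 2 genes. With the deposited labels the median was 1.61, with 8 genes 2-fold higher, beside 34.1% of all genes tested in that pair of libraries.

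At d5 the 10 genes were all lower after polytrauma than after fracture over all cells, by less than 2-fold. The number 2-fold lower was 0 and the number 2-fold higher was 0, where 6.7% of 8233 genes were lower and 1.19% higher. The log2 ratio of polytrauma to fracture was −0.79 for Lama2 (−0.90 to −0.68), −0.56 for Col4a1 (−0.61 to −0.50), −0.48 for Col15a1 and −0.47 for Nid1. It was −0.15 for Col18a1 (−0.23 to −0.08), −0.082 for Lama4 (−0.12 to −0.04) and −0.049 for Lamb1 (−0.09 to −0.01). The median was −0.35, against 0.00 for all genes. Pericyte-like cells were 3.34% of the fracture library and 0.863% of the polytrauma library, and without them the median was −0.14. Col18a1 turned in this comparison, to 0.41 without pericyte-like clusters and 0.10 without dividing clusters. With the deposited labels the median was 0.85 and 3 genes were 2-fold higher, beside 25.6% of all genes tested in that pair of libraries.

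Between d3 and d5 post-polytrauma, 3 of 10 genes rose past 2-fold and 0 fell past it, where 25.6% of 7815 genes were higher and 3.48% lower. They were Col18a1 (2.48-fold), Lama4 (2.26-fold) and Lamb1 (2.11-fold), and Col4a2 was at 1.04-fold. The median log2 ratio was 0.85 for the 10 genes and 0.44 for all genes. Relative to the latter 0 genes passed 2-fold, and the share of all genes past that mark is not given. With the deposited labels all 3 turned, at −0.15 for Col18a1, −0.082 for Lama4 and −0.049 for Lamb1. This comparison also crosses the barcode sets.

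Other basement membrane genes were counted from a list of 26. Of the 12 with at least 10 CPM at d0 or d3 post-fracture, 10 were at least 2-fold lower at d3 and 0 higher, beside 28.6% lower and 12.5% higher of all genes tested. Of the 10, 7 reached 10 CPM only at d0 and passed the filter through that library, which leaves 3 of the 5 genes at 10 CPM in both. Lama5, the alpha5 chain of mature vessel sheets, went from 29.9 to 0.26 CPM (115-fold lower) and Tinagl1 from 96.6 to 4.39 CPM. Both were among the 7 that passed the filter through d0 alone. Lamb2, the beta2 chain, went from 219 to 23.5 CPM. The lower share of pericyte-like cells at d3 moved with these values, and its part in them was not tested. Nid2, the other nidogen, was within 2-fold, at 27.9 CPM at d0 and 25.7 CPM at d3 post-fracture, unlike Nid1. At d5 post-fracture 9 of 10 tested were 2-fold higher than at d3 (34.1% of all genes), or 4 of the 5 with 10 CPM in both libraries. At d5 post-polytrauma 6 of 11 were 2-fold lower than at d5 post-fracture (6.7% of all genes), of which 4 passed the filter through the fracture library alone, which leaves 2 of 6. These 2 were Smoc1 (2.58-fold lower) and Fbln1 (2.00-fold lower). The 4 included Agrn (agrin), at 15.3 CPM post-fracture and 5.14 CPM post-polytrauma, and Tinagl1, at 11.8 and 2.72 CPM. Col7a1 was higher, at 5.96 and 15.0 CPM, and passed the filter through polytrauma alone. Pericyte-like cells were a smaller share at d5 post-polytrauma than at d5 post-fracture, and the part of this in these values was not tested. At d3 post-polytrauma against d3 post-fracture 0 of 5 passed 2-fold (1.72% of all genes higher, 1.26% lower). At d5 against d3 post-polytrauma 3 of 7 were higher (25.6% of all genes), of which 2 passed the filter through d5 alone, which leaves 1 of 5.

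Of 18 genes for receptors of the basement membrane, 11 were tested at d3 post-fracture against d0, and 8 were at least 2-fold lower and 1 higher, beside 28.6% and 12.5% of all genes. Of the 7 with 10 CPM in both libraries, 5 were lower and 0 higher. Bcam, a receptor for the laminin alpha5 chain, went from 142 to 2.46 CPM (57.7-fold lower). Itga7, a laminin-binding integrin chain, went from 30.9 to 3.07 CPM and Dag1 (dystroglycan) from 80.0 to 30.0 CPM. Bcam and Itga7 were under 10 CPM at d3 and passed the filter through d0 alone. The part of the lower share of pericyte-like cells at d3 in these values was not tested. The shared integrin chain Itgb1 was within 2-fold, at 207 and 158 CPM, and Gpc1 (glypican-1) was higher, at 8.37 and 17.6 CPM. Gpc1 passed the filter through d3 alone. At d5 post-fracture 7 of 11 were 2-fold higher than at d3 (34.1% of all genes), or 4 of 8 with 10 CPM in both libraries. At d3 post-polytrauma 0 of 8 passed 2-fold against d3 post-fracture (1.72% of all genes higher, 1.26% lower). At d5 post-polytrauma 2 of 11 (Itga1 and Sdc4) were lower than at d5 post-fracture (6.7% of all genes), and 5 of 10 were higher than at d3 post-polytrauma (25.6% of all genes), or 3 of 8 with 10 CPM in both libraries.

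The enzymes and chaperones that build collagen IV did not take the same course as the chains. Of 11 such genes, 10 were tested at d3 post-fracture against d0, and 3 were 2-fold higher and 0 lower, beside 12.5% higher and 28.6% lower of all genes. The median log2 ratio was 0.87, and all 10 had 10 CPM in both libraries. Lman1, a cargo receptor of the secretory pathway, went from 76.4 to 288 CPM, Plod3, a lysyl hydroxylase and glycosyltransferase, from 35.0 to 132 CPM and Colgalt1, a collagen galactosyltransferase, from 39.5 to 85.9 CPM. Pxdn (peroxidasin), which crosslinks collagen IV, was at 34.8 and 64.4 CPM. These enzymes also act on collagens of the fibrillar matrix. At d5 post-fracture 2 of 11 were 2-fold higher than at d3, below the 34.1% of all genes, or 1 of the 10 with 10 CPM in both libraries. At d3 post-polytrauma 0 of 10 passed 2-fold against d3 post-fracture (1.72% of all genes higher, 1.26% lower). At d5 post-polytrauma 1 of 11 (P3h2) was lower than at d5 post-fracture (6.7% of all genes). It passed the filter through the fracture library alone, which leaves 0 of 10. Against d3 post-polytrauma 3 of 10 were higher (25.6% of all genes).

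Across 45 clusters of at least 50 cells from the 5 libraries, the genes' levels on the log2(CPM + 1) scale were compared as a description, with no test, since the clusters share libraries and depth. Col4a1 and Col4a2 were the most alike of the pairs named here (Pearson's r = 0.97), followed by Lamc1 and Nid1 (0.89) and Lama2 and Nid1 (0.88), while Lama4 went with Lamb1 (0.79) and the value for Col4a1 and Lamb1 was 0.02. Among 9867 genes compared, those most like Col4a1 were Sparcl1 (0.90), Zbtb16 (0.87), Dlgap4 (0.85), Arhgap6 (0.85) and Spry4 (0.84). Those most like Lama2 were Abca8b (0.96), Cpq (0.94), Abca8a (0.93), Fmo5 (0.92) and Mill2 (0.91). Lama4 was most like Lppos (0.87), Smad5 (0.86), Kdelc2 (0.86), Add1 (0.86) and Llgl1 (0.86).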

How the data were processed

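GFP+ cells from mouse hindlimb muscle were sequenced in 5 libraries. Reads were assigned by the authors to the mm10 genome with Cell Ranger, and Seurat 3.1.2 is named for later steps in the submitters' notes. The deposited values are raw, unnormalized UMI counts for every gene and barcode. Here, barcodes with 350 to 8000 genes, at least 1000 UMIs and under 20% mitochondrial UMIs were retained (17437190 to 202233564 UMIs per library), and counts were summed per library or cluster and given as CPM. Intervals are exact Poisson for CPM, exact conditional for ratios of counts and exact Clopper-Pearson for shares. Genes with at least 10 CPM in either library were tested against a 2-fold threshold. The share of all genes was computed under this filter only, and not for genes with 10 CPM in both libraries.

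Each library was clustered in scanpy 1.11.5 (Python 3.11.15, numpy 2.4.6, scipy 1.17.1) at a resolution of 0.5, from 20 principal components of 2000 variable genes. Neither the members nor the other basement membrane genes nor the naming markers were used as variable genes. A cluster name required at least 3 markers in at least 10% of the cells, but this alone was not sufficient. Some clusters with a candidate name also stayed unnamed. Among them were clusters of 447 cells at d0 and 1598 cells at d3 post-polytrauma, both with FAP/MP-like as the only candidate. The FAP/MP-like class therefore does not hold every cluster that had this candidate name. Scrublet's threshold called 1 to 4 cells in 4 libraries, under 0.5% and so not usable, and 1814 of 11941 cells (15.2%) at d5 post-polytrauma. In every library the highest scores (0.8% per 1000 cells) were instead marked as possible doublets, kept, and left out as an alternative. At d5 post-polytrauma 1141 cells were marked, fewer than the threshold called. Cells whose barcode also occurred in another library (11 to 338 per library) were likewise left out as an alternative, unless they held at least 10 times as many UMIs as there. At d5 post-fracture 869 of the 1468 cells shared a barcode with another library, and 11 of them were left out by this rule. 944 barcodes occurred in both d5 libraries.

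The deposited label of 2 libraries was exchanged after the study's cell numbers, with the deposited labels as an alternative. The members and gene lists were chosen with earlier results of these data known. All members were named in every comparison, and genes of the other lists by the 2-fold threshold. The pair ratios, the FAP/MP-like levels at resolutions of 0.3 and 1.0 and the omission of pericyte-like cells with endothelial or myofibre marker UMIs were chosen after seeing the data. Promoter windows are from RefSeq, in which 8 of 10 members matched, and Lama4 and Lamc1 did not. The ratio step was tested on simulated data with 200 changed genes. Other alternatives were median-of-ratios scaling, no UMI minimum, a 1.5-fold threshold, thinning to 2000 UMIs and the omission of pericyte-like or dividing clusters.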

Additional observations from a re-analysis of the deposited data

How the results depend on the processing

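Leaving out possible doublets or shared barcodes, or dropping the UMI minimum, moved 0 of 50 member ratios beyond their counting interval. The shared-barcode rule left out 0.749% to 2.83% of the cells of a library, too few to show an effect of shared barcodes. Median-of-ratios scaling moved 30 of 50, with 1 change of direction, omitting pericyte-like clusters moved 23 with 2 changes, and omitting dividing clusters moved 37 with 2 changes. The deposited labels moved 40 of 40 with 22 changes. Among levels in FAP/MP-like cells, chosen for this after seeing the data, clustering at a resolution of 0.3 moved 34 of 50 and at 1.0 also 34. Among 20 levels in pericyte-like cells, omitting cells with endothelial marker UMIs moved 8 and with myofibre marker UMIs 3. The cause of these shifts was not tested.

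Under median-of-ratios scaling the median log2 ratio of the members was −2.55 at d3 post-fracture against d0, 1.06 at d5 against d3 post-fracture (5 genes 2-fold higher) and 0.41 at d5 against d3 post-polytrauma (0 genes). The share of all genes past 2-fold under this scaling is not given, so nothing is read from these counts. Without pericyte-like clusters the median was −3.16, 1.45 and 0.78 in the same order, and −0.14 at d5 post-polytrauma against d5 post-fracture. Without dividing clusters it was −2.43, 1.36 and 0.77, and 0.079 at d3 post-polytrauma against d3 post-fracture. With the deposited labels it was 0.51 at d5 against d3 post-fracture (0 genes 2-fold higher, beside 1.72% of all genes). It was 1.61 at d3 post-polytrauma against d3 post-fracture (8 genes, beside 34.1%). It was 0.85 at d5 post-polytrauma against d5 post-fracture (3 genes, beside 25.6%) and −0.35 at d5 against d3 post-polytrauma (0 genes, beside 1.19%). In the last of these Col18a1 (−0.15), Lama4 (−0.082) and Lamb1 (−0.049) reversed. At 1.5-fold, 3 genes were higher at d3 post-polytrauma than at d3 post-fracture, 1 was lower at d5 post-polytrauma than at d5 post-fracture and 6 were higher at d5 than at d3 post-polytrauma. The share of all genes past 1.5-fold is not given, so nothing is read from these counts. For pericyte-like against other d0 cells the median was −1.56 without possible doublets. Thinning to 2000 UMIs left 8 genes with their highest share at d0.

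With 1 library per condition the spread between mice is unknown, and depth limits the shares of cells with a UMI in every library and the levels in small groups. No paired analysis was possible because each condition had 1 library.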
